A study of Sus scrofa with 12 samples.

Results

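The 115 genes of the ZNF series, genes named for a zinc finger and a number, were described in pig peripheral blood mononuclear cells (PBMC). They are the genes whose symbol starts with ZNF followed by a digit, 115 of the 7480 genes of the table (1.54%), and no measured value entered the choice. A zinc finger is a short loop of protein held by a zinc ion. Strings of such fingers read DNA, and in some of these proteins RNA, base by base. Many proteins of this family carry a KRAB domain, which recruits the corepressor TRIM28 and, through it, histone methyltransferases and heterochromatin proteins that silence transposable elements and genes. Others act as activators, as parts of chromatin complexes, or in RNA and ribosome metabolism.

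The 12 libraries fall into 3 groups of 4. The first group received a miR-124 sponge and Salmonella, the second Salmonella alone, and the third was the non-treated control. Sponges are RNAs or oligonucleotides that soak up a microRNA. The titles of the first group name miR-124 and no sponge, and the word is taken from its treatment label. Blood came, per the series text, from 20 Duroc × Landrace × Yorkshire piglets of both sexes, 4 weeks old, cells were collected 12 h after treatment, and the bacterium is named Salmonella Typhi there. Nothing says which animal a library came from or whether libraries were pooled, so p-values measure the spread between these libraries only, which may be technical.

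Values were 1 log2 number per gene and library, from 2.13 to 15.01, and the depth behind them is unknown. A set of 175 symbols of olfactory receptors, taste receptors, keratin-associated proteins, vomeronasal receptors and defensins, which blood cells are taken not to use, had a mean of 4.62 and a 95th percentile of 5.24. This is read as the background, and differences of genes near it are compressed. Within 1 column, 65.1% to 71.4% of all values of the sponge plus Salmonella libraries equalled the value of another gene, against at most 0.0267% for Salmonella and at most 0.0802% for control. Such ties took in 68.7% to 78.3% of the ZNF values of each sponge plus Salmonella library and none in the other 8 libraries. Treatment and these ties cannot be told apart. Of the 115 symbols, 99 were in the RefSeq table of Sscrofa11.1, 97 as protein-coding and 2 (ZNF532 and ZNF648) as long non-coding RNA. Another 8 were found only in the Ensembl names, and 8, among them ZNF350 and ZNF75A, in neither. Many ZNF genes have close copies in the genome. How reads of 50 bases shared by such copies were counted is not given in the sources used here, which makes the values of close copies uncertain.

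ZNF genes spanned the lower and middle part of the range of levels. Their mean over the 12 libraries ran from 4.37 to 10.45 log2 units, with a median of 5.34, against 5.21 over all genes. Means of 7 or more were found for 29 genes and means of 5 or more for 71 (61.7%, against 55.4% of all genes), while 53 lay below 5.24 and 19 below 4.62. ZNF428 was the highest, at 10.57 ± 0.05 in sponge plus Salmonella, 10.05 ± 0.13 in Salmonella and 10.73 ± 0.15 in control libraries (SD, n = 4 each). It was followed by ZNF148, which binds GC-rich promoters in human cells, ZNF22 and ZNF622. The members nearest to the mean of 5 used as a limit below had means of 5.03 just inside and 4.97 just outside it.

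**Figure D1:**
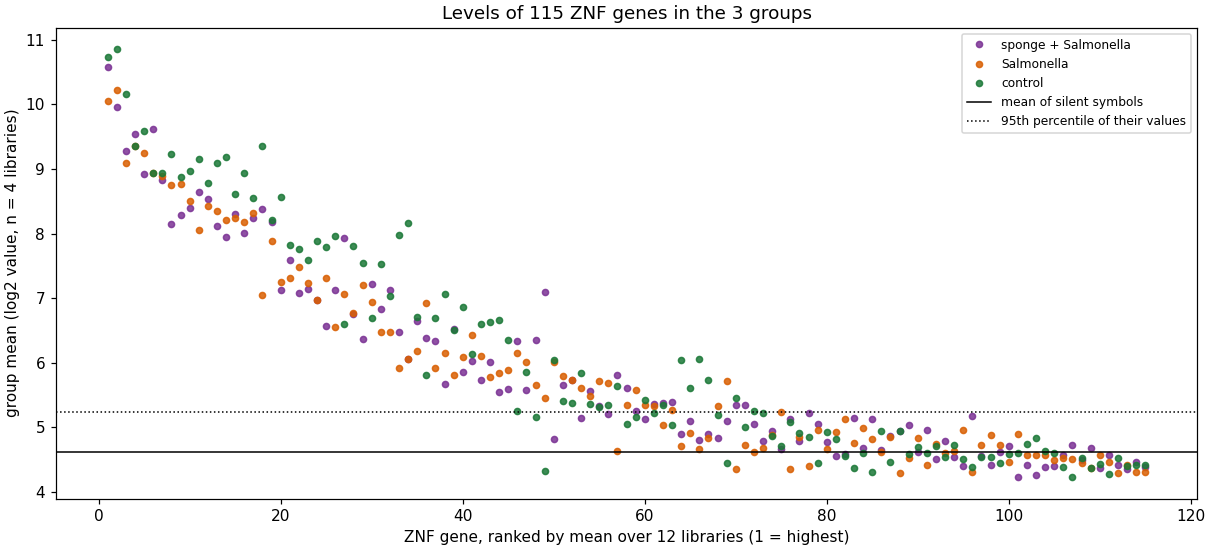
Group means (log2 value, n = 4 libraries) of the 115 ZNF genes, ranked by their mean over 12 libraries, with lines at the silent symbols' mean of 4.62 and at their 95th percentile of 5.24. Levels fall steeply over the highest genes, and 53 of the 115 genes have a mean below the dotted line.

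The replicate spread of the family was close to that of the table. The median SD over the 115 genes was 0.25 in sponge plus Salmonella, 0.25 in Salmonella and 0.19 in control libraries, against 0.24, 0.23 and 0.19 over all genes in the same order of groups. The widest spreads were 0.57 for ZNF688 in sponge plus Salmonella, 0.95 for ZNF75A in Salmonella and 1.02 for ZNF639 in control libraries. Among the 71 genes with a mean of at least 5, sponge plus Salmonella replicate 1 gave the highest value of its group for 27 genes and replicate 2 the lowest for 29. Salmonella replicate 1 gave the lowest value of its group for 25 genes, and control replicate 1 the highest of its group for 31. The median value over the 115 genes ran from 5.24 to 5.58 in sponge plus Salmonella, from 5.27 to 5.59 in Salmonella and from 5.38 to 5.45 in control libraries.

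**Figure D2:**
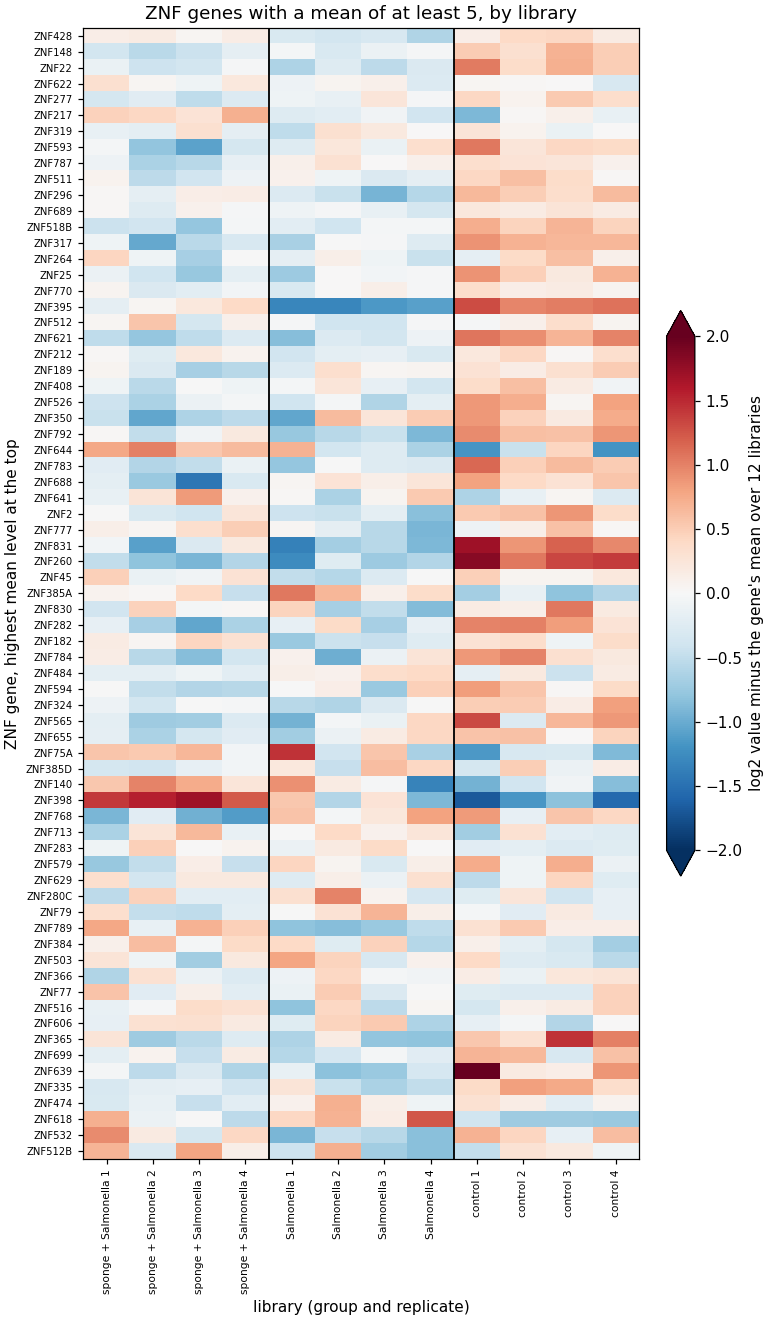
Log2 value minus the gene's mean over 12 libraries, for the 71 ZNF genes with a mean of at least 5 (rows, highest level at the top) in each library (columns, by group and replicate). ZNF395 is low in all 4 Salmonella libraries, ZNF260 is high in the 4 control libraries only, and ZNF398 is high in the 4 sponge plus Salmonella libraries.

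Which ZNF genes differ after exposure to the bacterium was read from Salmonella against control libraries. ZNF395, ZNF260 and ZNF831 were lower with Salmonella by 2 log2 units or more, and ZNF618, ZNF398 and ZNF385A were higher by 1 or more. A gene was called when its adjusted p was below 0.05 by limma, with Benjamini-Hochberg adjustment over all 7480 genes. Of the 115 genes, 41 were called, 10 higher and 31 lower (35.7%, against 33.6% of all genes). By direction, 8.70% were called higher, against 15.7% of all genes, and 27.0% lower, against 17.9%. Median centring of the libraries gave 6 higher and 40 lower, and moved all genes the same way, with 965 higher and 1778 lower, against 1175 and 1338 as deposited. Leaving out control replicate 2 gave 5 higher and 29 lower, with 1009 and 1205 of all genes. The median difference over the family was -0.11, against -0.02 over all genes. The groups did not overlap for 42 ZNF genes, 8 higher and 34 lower, which happened for 35.6% of all genes, 15.7% higher and 19.9% lower.

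By level, of the 71 genes with a mean of at least 5, 3 were called higher and 25 lower, which is 4.23% and 35.2%, against 22.2% and 24.2% of all genes of that level. Their median difference was -0.37, against -0.03. Of the 44 genes below 5, 7 were called higher and 6 lower, which is 15.9% and 13.6%. All genes of that level had 7.67% and 10.1%, and the differences of the 44 genes ran from -0.74 to 0.58.

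**Figure D3:**
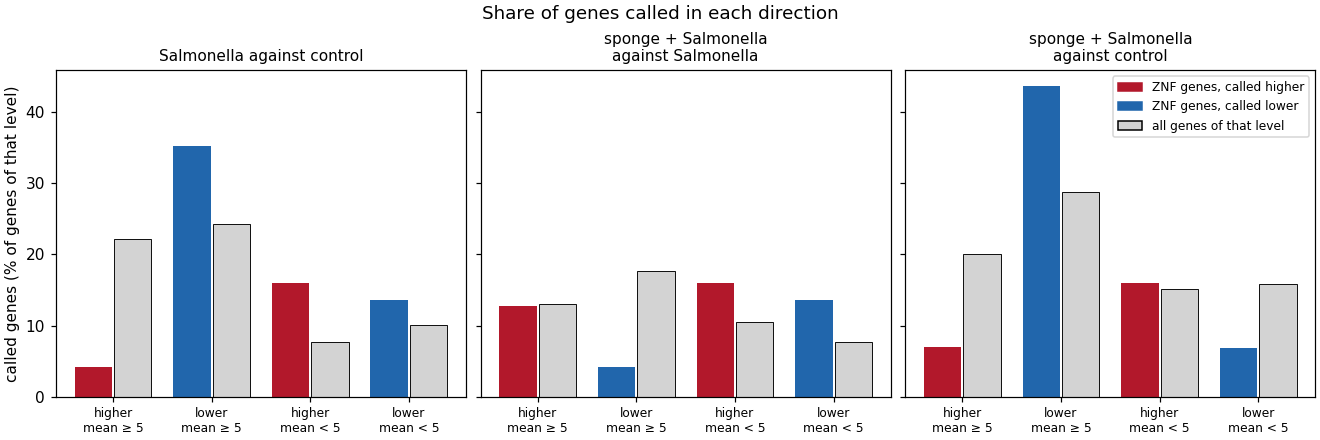
Share of genes called higher or lower (adjusted p below 0.05) in the 3 comparisons, in % of the 71 ZNF genes with a mean of at least 5 or the 44 below it (coloured bars), beside all genes of the same level (grey bars). In the left panel 35.2% of the ZNF genes of the upper class are called lower and 4.23% higher.

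ZNF395 is a DNA-binding factor that in human cells is induced by low oxygen and activates some interferon-responsive genes. In Sscrofa11.1 the gene spans chromosome 14, 12136090 to 12184468. Its values were 6.95, 6.95, 7.10 and 7.17 in Salmonella libraries, against 9.56, 9.23, 9.29 and 9.35 in control libraries. The groups were more than 2 log2 units apart (difference -2.31 ± 0.16 SE, adjusted p = 5.9e-07).

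ZNF260, whose rat counterpart takes part in adrenergic signalling in heart cells, lies on chromosome 6, 45858074 to 45882107. It had 5.50, 6.53, 6.03 and 6.17 in Salmonella libraries, against 8.59, 7.82, 8.09 and 8.16 in control libraries. Every Salmonella value lay below every control value, and the difference was -2.11 ± 0.24 (adjusted p = 1.7e-05). ZNF831, on chromosome 17, 59277242 to 59386483, had 5.43, 6.12, 6.24 and 5.89 in Salmonella libraries, against 8.49, 7.68, 7.97 and 7.75 in control libraries. These groups did not overlap either (-2.05 ± 0.29, adjusted p = 9.8e-05).

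The next largest falls with Salmonella were those of ZNF792, ZNF639, ZNF365, ZNF621, ZNF532, ZNF296 and ZNF22, each without overlap. ZNF792 averaged 6.55 ± 0.20 in Salmonella and 7.96 ± 0.19 in control libraries (SD, n = 4 each), a difference of -1.41 ± 0.19 SE. ZNF621 averaged 7.24 ± 0.32 in Salmonella and 8.56 ± 0.17 in control libraries (-1.31 ± 0.19). ZNF296 (-1.08 ± 0.16) averaged 8.06 in Salmonella and 9.15 in control libraries, and ZNF22 (-1.07 ± 0.17) 9.09 and 10.16. ZNF365, which in human cells acts at the centrosome and in genome stability, differed by -1.34 ± 0.30, and its Salmonella mean of 4.71 lay near the background. So did that of ZNF532 (4.36, difference -1.09 ± 0.26) and that of ZNF639 (4.66). ZNF639 had 7.50 in control replicate 1 and 5.30 to 6.06 in the other control libraries. Its difference was -1.40 ± 0.38 with all libraries and -0.92 without control replicate 1. The adjusted p of these 7 genes ran from 8.4e-05 to 0.0106.

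The 3 rises among the 71 genes with a mean of at least 5 were those of ZNF618, ZNF385A and ZNF398. ZNF618, which binds the ubiquitin ligase UHRF2 in human cells, had 5.51, 5.80, 5.25 and 6.34 in Salmonella libraries, against 4.70, 4.38, 4.38 and 4.35 in control libraries. The control values lay near the background, so the size of its rise is uncertain (1.27 ± 0.26, adjusted p = 0.00197). ZNF385A, also called HZF, is a p53 target that in human cells directs p53 towards growth arrest genes. Its values were 7.43, 7.04, 6.48 and 6.75 in Salmonella libraries and 5.69, 6.23, 5.57 and 5.78 in control libraries, with no overlap (1.11 ± 0.26, adjusted p = 0.00435). ZNF398 was called higher too (1.13 ± 0.31, adjusted p = 0.0119), but Salmonella replicate 4, at 4.73, lay below control replicate 3, at 4.81.

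Markers of blood cell types moved in the same comparison. Of 10 measured T cell markers 9 were lower with Salmonella, as were 3 of 3 B cell and 4 of 5 natural killer cell markers, while 5 of 6 monocyte and 2 of 5 neutrophil markers were higher and 1 lower. Over all genes 15.7% were higher and 17.9% lower. The log2 of the summed T cell marker values ran from 11.82 to 12.62 in Salmonella and from 13.51 to 13.93 in control libraries. Here and below, values were summed on the unlogged scale, so the most abundant markers of a list weigh most. For the B cell markers the same sum ran from 9.41 to 9.95 in Salmonella and from 12.04 to 12.89 in control libraries. Natural killer cell markers summed to between 12.01 and 12.49 in Salmonella and between 13.77 and 14.29 in control libraries. Monocyte markers summed to between 14.06 and 14.26 in Salmonella and between 13.59 and 13.68 in control libraries, and neutrophil markers to between 10.13 and 10.94 in Salmonella and between 9.29 and 9.66 in control libraries. Of the platelet markers 4 of 5 were higher, with sums from 12.52 to 13.67 in Salmonella and from 11.86 to 12.24 in control libraries. Of 3 erythroid markers 1 was higher, with sums from 12.15 to 13.12 in Salmonella and from 11.15 to 11.99 in control libraries. No marker was listed at 0, and CD14 and MS4A1 were not analysed here. In bulk samples fewer cells of a type and less RNA per cell cannot be told apart, and the part of these markers in the ZNF differences was not tested.

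**Figure D4:**
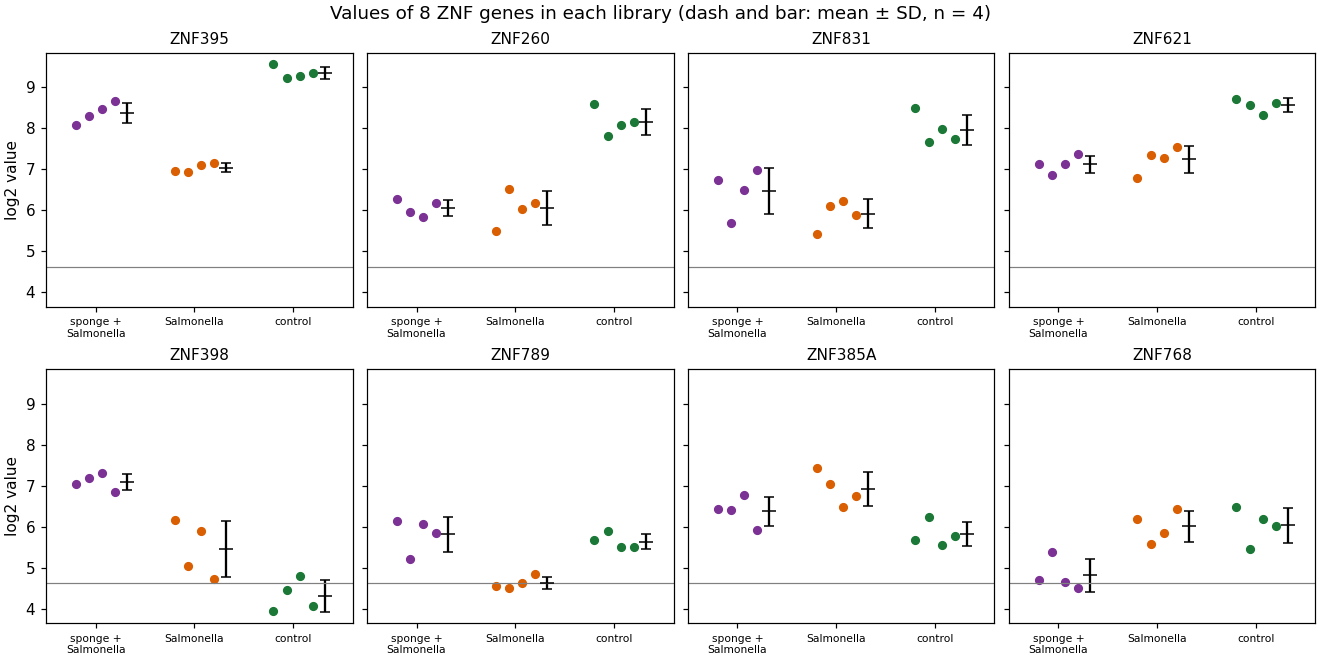
Log2 values of 8 ZNF genes in each library (points) with mean ± SD (dash and bar, n = 4) for sponge plus Salmonella, Salmonella and control; the grey line is the silent symbols' mean of 4.62. ZNF395 with the sponge lies between the other groups, ZNF260 and ZNF621 overlap between the 2 Salmonella-treated groups, and ZNF398 is highest with the sponge.

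Sponge plus Salmonella libraries were next set against Salmonella libraries. No group received a sponge alone or a control sponge, so the delivery of a sponge and the binding of miR-124 cannot be told apart. ZNF398, ZNF395 and ZNF789 were higher with the sponge by more than 1 log2 unit, and ZNF768 was lower by more than 1. Of the 115 genes, 25 were called, 16 higher and 9 lower (21.7%, against 25.0% of all genes). Higher calls were 13.9% of the family, against 11.9% of all genes, and lower calls 7.83%, against 13.2%. Leaving out Salmonella replicate 2 gave 16 higher and 5 lower, with 669 and 720 of all genes, against 888 and 985 with all libraries. The median difference was 0.04, against -0.04 over all genes. Groups without overlap were found for 27 ZNF genes, 15 higher and 12 lower, and for 23.8% of all genes, 10.6% higher and 13.2% lower. Of the 71 genes with a mean of at least 5, 9 were called higher and 3 lower, which is 12.7% and 4.23%, against 13.0% and 17.6% of all genes of that level. Of the 44 genes below 5, 7 were called higher and 6 lower, which is 15.9% and 13.6%, against 10.5% and 7.67%.

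ZNF398, also called ZER6 and known in human cells for isoforms that bind p53 or the oestrogen receptor, showed the largest difference. It had 7.03, 7.18, 7.32 and 6.86 in sponge plus Salmonella libraries, against 6.16, 5.03, 5.90 and 4.73 in Salmonella libraries. The lowest sponge value was above the highest Salmonella value (1.64 ± 0.31, adjusted p = 0.00219). ZNF395 had 8.08, 8.29, 8.47 and 8.66 in sponge plus Salmonella libraries, so it lay above all 4 Salmonella values given above (1.33 ± 0.16, adjusted p = 1.6e-04). ZNF789, on chromosome 3, 6468709 to 6481537, had 6.14, 5.22, 6.06 and 5.85 in sponge plus Salmonella libraries, against 4.57, 4.51, 4.62 and 4.85 in Salmonella libraries. The Salmonella values lay at the background and did not overlap with the sponge values (1.18 ± 0.22, adjusted p = 0.00209).

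ZNF532 was higher with the sponge (0.98 ± 0.26, adjusted p = 0.0130), at 5.35 ± 0.54 in sponge plus Salmonella and 4.36 ± 0.21 in Salmonella libraries. ZNF428, the most abundant member, was higher by 0.52 ± 0.13 (adjusted p = 0.0102). ZNF182, an X-linked gene, averaged 6.52 ± 0.16 in sponge plus Salmonella and 5.81 ± 0.20 in Salmonella libraries (0.71 ± 0.20). Its call ended without sponge plus Salmonella replicates 3 or 4 (adjusted p 0.0535 to 0.0551). ZNF217, which works with the CoREST histone demethylase complex in human cells, had 9.62, 9.57, 9.43 and 9.87 in sponge plus Salmonella libraries, against 8.90, 8.95, 9.08 and 8.77 in Salmonella libraries. These groups did not overlap (0.69 ± 0.20, adjusted p = 0.0210), and the call ended without replicate 4 of either group (adjusted p 0.0585 to 0.0638). The call of ZNF296 (0.58 ± 0.16) ended without sponge plus Salmonella replicate 4 or Salmonella replicate 3 (adjusted p 0.0516 to 0.0635).

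Among the genes lower with the sponge, ZNF768, which binds a repeat motif of MIR elements in human cells, had 4.70, 5.39, 4.67 and 4.50 in sponge plus Salmonella libraries, against 6.19, 5.58, 5.84 and 6.43 in Salmonella libraries. Of the 4 sponge values 3 were near the background, and the groups did not overlap (-1.20 ± 0.28, adjusted p = 0.00747). ZNF688 was lower by -0.84 ± 0.25 (adjusted p = 0.0242), and its call ended without sponge plus Salmonella replicates 2 or 3 and without Salmonella replicates 2 or 4 (adjusted p 0.0501 to 0.0608). ZNF787 was lower by -0.49 ± 0.16 (adjusted p = 0.0347). That call ended without sponge plus Salmonella replicates 2 or 3 and without Salmonella replicates 2, 3 or 4 (adjusted p 0.0506 to 0.096), with quantile normalization (0.060) and with only the 2 groups compared in the fit (0.0748).

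In the same comparison 10 of 10 T cell, 3 of 3 B cell and 2 of 5 natural killer cell markers were higher with the sponge, and 4 of 6 monocyte and 3 of 3 erythroid markers lower, where 11.9% of all genes were higher and 13.2% lower. The summed T cell markers ran from 12.74 to 13.56 in sponge plus Salmonella libraries and the B cell markers from 11.36 to 11.69, against the Salmonella ranges given above. The monocyte markers ran from 13.08 to 13.93, the natural killer cell markers from 12.50 to 13.13 and the erythroid markers from 9.33 to 11.97 in sponge plus Salmonella libraries. Of the platelet markers 2 of 5 were higher and 1 lower (12.68 to 13.20), and of the neutrophil markers 0 of 5 were called by limma and 1 had an unadjusted p below 0.05 (10.19 to 11.11). The part of these markers in the ZNF differences was not tested.

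The comparison of sponge plus Salmonella with control libraries covers both treatments together. It shares its libraries with the comparisons above, so the values of each are given side by side. Of the 115 genes, 46 were called, 12 higher and 34 lower (40.0%, against 40.9% of all genes). Higher calls were 10.4%, against 17.9%, and lower calls 29.6%, against 23.0%. Of the 71 genes with a mean of at least 5, 5 were called higher and 31 lower, which is 7.04% and 43.7%, against 20.0% and 28.8% of all genes of that level, of which 48.8% were called in all. Of the 44 genes below 5, 7 were called higher and 3 lower, which is 15.9% and 6.82%, against 15.2% and 15.8%. The groups did not overlap for 13 ZNF genes that were higher and 35 that were lower, against 39.7% of all genes, 17.3% higher and 22.5% lower. The median difference over the 115 genes was -0.12, against -0.07 over all genes, and median centring moved this median of all genes by -0.12, with 10 ZNF genes higher and 46 lower relative to it, and 1062 and 2569 of all genes.

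**Figure D5:**
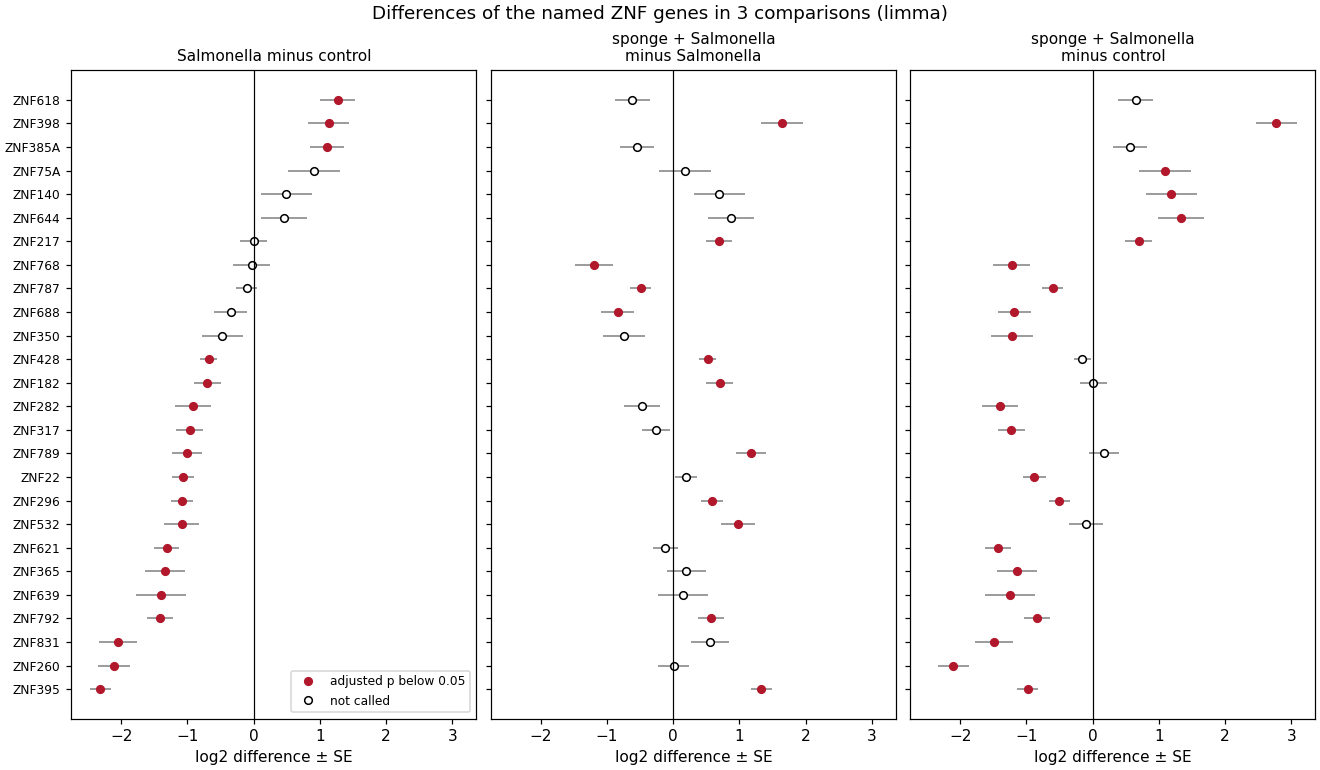
Log2 differences ± SE of the 26 ZNF genes with the largest called changes, in 3 panels for the 3 comparisons, with filled points where adjusted p was below 0.05. ZNF260 lies near -2.11 in the left panel, at 0.01 in the middle and at -2.10 in the right panel, while ZNF789 is lower in the left panel, at 1.18 in the middle and at 0.17 in the right panel.

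ZNF260 and ZNF621 were below control with the sponge, and their differences from Salmonella libraries did not pass the test, which does not show equal levels. ZNF260 had 6.27, 5.96, 5.85 and 6.18 in sponge plus Salmonella libraries. It differed by -2.10 ± 0.24 from control libraries (adjusted p = 6.3e-05), and by 0.01 ± 0.24 from Salmonella libraries (adjusted p = 0.987). ZNF621 differed by -1.43 ± 0.19 from control (adjusted p = 1.2e-04) and by -0.12 ± 0.19 from Salmonella libraries (adjusted p = 0.673). ZNF22 (-0.88 ± 0.17 from control), ZNF365 (-1.14 ± 0.30) and ZNF639 (-1.25 ± 0.38, or -0.77 without control replicate 1) were also below control, and the sponge differences of these genes did not pass the test. ZNF831 averaged 6.48 ± 0.56 in sponge plus Salmonella libraries. It was lower than in control libraries by -1.49 ± 0.29 (adjusted p = 0.00112), and its difference from Salmonella libraries was 0.56 ± 0.29 (adjusted p = 0.162).

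ZNF395 with the sponge stood between the other groups, below control by -0.98 ± 0.16 (adjusted p = 4.0e-04). ZNF792 was likewise below control by -0.84 ± 0.19 (adjusted p = 0.00372), and above Salmonella by 0.57 ± 0.19 (adjusted p = 0.0428). The call of ZNF792 against Salmonella ended without any of 8 libraries in turn (adjusted p 0.056 to 0.116). These were sponge plus Salmonella replicates 1, 3 and 4, Salmonella replicates 1, 2 and 4 and control replicates 2 and 4. It also ended with median centring (adjusted p = 0.0527), with values rounded to 1 decimal (0.0675) and with only the 2 groups compared in the fit (0.0856). ZNF296 was below control by -0.50 ± 0.16 (adjusted p = 0.0246), which ended without sponge plus Salmonella replicate 2 or control replicates 1 or 4 (adjusted p 0.0661 to 0.0671) and with quantile normalization (0.0563).

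ZNF789, ZNF532, ZNF182 and ZNF428 differed from control by 0.17 ± 0.22, -0.11 ± 0.26, 0.01 ± 0.20 and -0.16 ± 0.13 with the sponge. The adjusted p of these differences ran from 0.337 to 0.987, which does not show equal levels. All of them were lower with Salmonella alone than in control libraries. ZNF789 averaged 4.64 ± 0.15 in Salmonella and 5.64 ± 0.18 in control libraries, and the differences of the others were -1.09 ± 0.26, -0.70 ± 0.20 and -0.68 ± 0.13 (limma adjusted p 0.00109 to 0.0159 over the 4 genes).

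ZNF282, ZNF317, ZNF350, ZNF688 and ZNF768 were among the 10 largest falls with sponge plus Salmonella against control. ZNF282, known in humans as a repressor of a leukaemia virus promoter, averaged 5.67 ± 0.35 in sponge plus Salmonella and 7.07 ± 0.35 in control libraries (-1.40 ± 0.27). Against control it was lower with Salmonella too (-0.92 ± 0.27), although Salmonella replicate 2, at 6.68, lay above control replicate 4, at 6.56, and the call ended without Salmonella replicate 3 (adjusted p = 0.0577). ZNF317 averaged 7.95 ± 0.40 in sponge plus Salmonella and 9.18 ± 0.11 in control libraries (-1.23 ± 0.21). With Salmonella alone ZNF317 was lower than control too (-0.97 ± 0.21, limma adjusted p = 0.00226). Its difference between sponge plus Salmonella and Salmonella libraries was -0.26 ± 0.21 (adjusted p = 0.367). ZNF350, or ZBRK1, a partner of BRCA1 in human cells, had 6.78, 6.18, 6.61 and 6.71 in sponge plus Salmonella libraries, against 8.10, 7.68, 7.40 and 7.97 in control libraries (-1.22 ± 0.31). In Salmonella libraries it had 6.19 in replicate 1 and 7.47 to 7.86 in the others. ZNF688 (-1.18 ± 0.25) and ZNF768 (-1.22 ± 0.28) were below control with the sponge, and with Salmonella alone they differed from control by -0.34 ± 0.25 and -0.03 ± 0.28.

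The rises against control were led by ZNF398, with 3.95, 4.46, 4.81 and 4.08 in control libraries (2.77 ± 0.31, adjusted p = 6.3e-05). Its control mean of 4.32 lay below the background, so the size is uncertain. ZNF644, which works with the histone methyltransferases G9a and GLP, had 7.97, 8.21, 7.73 and 7.83 in sponge plus Salmonella libraries, against 6.01, 6.75, 7.64 and 6.01 in control libraries. The groups did not overlap (1.34 ± 0.35, adjusted p = 0.00726), although control replicate 3 came close. ZNF217 was higher by 0.69 ± 0.20 (adjusted p = 0.0129). ZNF140, a KRAB repressor, was higher by 1.19 ± 0.38 (adjusted p = 0.0229), and ZNF75A by 1.09 ± 0.39 (adjusted p = 0.0377). Without sponge plus Salmonella replicates 2 or 3 or control replicates 1 or 4, ZNF140 was not called (adjusted p 0.0516 to 0.0655). ZNF75A was not called without sponge plus Salmonella replicates 1, 2 or 3 or those same control replicates (adjusted p 0.0743 to 0.105). The rises of ZNF398, ZNF644, ZNF140 and ZNF75A shared a pattern between replicates. In each of them Salmonella replicate 1 was the highest and replicate 4 the lowest of its group, and control replicate 3 was the highest control library. Among Salmonella libraries ZNF217 was highest in replicate 3 instead. SUMO2, SP4 and ZBTB11, described below, showed the same pattern, so it was not particular to ZNF genes. The other partner genes and zinc finger factors named below did not show it. What lies behind the shared pattern was not tested.

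Against control, 6 of 10 T cell markers were called with the sponge, 2 higher and 4 lower, and 2 of 3 B cell and 4 of 5 natural killer cell markers were lower. Of the other marker lists, 3 of 6 monocyte, 2 of 5 platelet and 1 of 5 neutrophil markers were higher, 2 of 5 neutrophil markers were lower, and 0 of 3 erythroid markers were called by limma, 0 also at an unadjusted p below 0.05. Over all genes 17.9% were higher and 23.0% lower. The part of these markers in the ZNF differences was not tested.

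The members were also grouped by known role, and the counts of each list are to be read beside the shares of all genes. These were 15.7% higher and 17.9% lower with Salmonella against control, 11.9% and 13.2% with the sponge against Salmonella, and 17.9% and 23.0% with the sponge against control. Of 8 measured members that work with chromatin enzymes, 0 were higher and 3 lower in the first comparison, 2 higher and 0 lower in the second, and 2 higher and 2 lower in the third. Besides ZNF217, ZNF532 and ZNF644, ZNF335 and ZNF518B were called. ZNF335, part of a histone methyltransferase complex and needed for T cell maturation in mice, had 5.42, 4.72, 4.53 and 4.67 in Salmonella libraries, against 5.55, 5.98, 5.92 and 5.51 in control libraries. It was lower with Salmonella (-0.90 ± 0.21, adjusted p = 0.004) and with sponge plus Salmonella (-0.84 ± 0.21, adjusted p = 0.00559) than in control libraries. Its means of 4.84 in Salmonella and 4.90 in sponge plus Salmonella libraries lay near the background, so these sizes are uncertain. ZNF518B, a partner of G9a in human cells, averaged 8.11 ± 0.30 in sponge plus Salmonella, 8.34 ± 0.17 in Salmonella and 9.09 ± 0.15 in control libraries. Its differences from control were -0.98 ± 0.17 with the sponge and -0.75 ± 0.17 with Salmonella alone, both called. ZNF516, ZNF462 and ZNF711 did not pass in any comparison, with group means of 5.03 to 5.38, 4.45 to 4.53 and 4.55 to 4.74.

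Of 6 measured members known from immune, progenitor or epithelial cells, 0 were higher and 3 lower with Salmonella against control, where all genes had 15.7% and 17.9%. With the sponge against Salmonella 1 was higher and 1 lower, beside 11.9% and 13.2% of all genes, and with the sponge against control 0 were higher and 3 lower, beside 17.9% and 23.0%. ZNF148 had 10.31, 10.04, 10.22 and 10.31 in Salmonella libraries, against 10.86, 10.67, 11.04 and 10.84 in control libraries, a fall of -0.63 ± 0.14 (adjusted p = 0.00265). With sponge plus Salmonella it was lower than control by -0.89 ± 0.14 (adjusted p = 2.6e-04). ZNF395 and ZNF831 are the other members that fell against control. ZNF366, a dendritic cell factor also called DC-SCRIPT, had group means of 5.13 ± 0.38 in sponge plus Salmonella, 5.35 ± 0.25 in Salmonella and 5.43 ± 0.18 in control libraries, and no difference passed the test. ZNF521, a cofactor of blood progenitors, and ZNF750, a factor of epidermal cells, lay at or below the background in each group. The call of ZNF750 with the sponge against Salmonella (adjusted p = 0.0447) was -0.21 ± 0.07 in size and ended without any 1 library other than sponge plus Salmonella replicate 1 or Salmonella replicate 3 (adjusted p 0.0523 to 0.12). It also ended without the variance trend (0.105) and with only the 2 groups compared in the fit (0.108).

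Of 5 measured members tied to RNA and ribosomes, 1 was higher and 0 lower with Salmonella against control, where all genes had 15.7% and 17.9%. By limma 0 of the 5 were called with the sponge against Salmonella, where 25.0% of all genes were, and 2 of the 5 had an unadjusted p below 0.05. Sponge plus Salmonella against control had 0 higher and 2 lower, beside 17.9% and 23.0% of all genes. ZNF622, whose yeast counterpart matures the large ribosomal subunit, averaged 9.54 ± 0.18 in sponge plus Salmonella, 9.36 ± 0.17 in Salmonella and 9.36 ± 0.17 in control libraries, and its differences of 0.00 to 0.18 did not pass. ZNF593, whose yeast counterpart exports that subunit from the nucleus, had 8.66, 7.92, 7.64 and 8.35 in sponge plus Salmonella libraries, against 9.75, 8.94, 9.11 and 9.09 in control libraries (-1.08 ± 0.24, adjusted p = 0.00268). ZNF277 was lower by -0.67 ± 0.15 in the same comparison (adjusted p = 0.00267). ZNF385A is the member higher with Salmonella. ZNF830, which acts in splicing and DNA repair in human cells, averaged 6.33 ± 0.35 in sponge plus Salmonella, 5.93 ± 0.58 in Salmonella and 6.70 ± 0.45 in control libraries, and no difference passed.

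The partner genes through which KRAB domains silence DNA were counted next. TRIM28 and SETDB1 were not analysed here, and 18 of 45 listed partners were measured. With Salmonella against control 3 of 18 were higher and 3 lower, shares near the 15.7% and 17.9% of all genes. The sponge against Salmonella gave 2 higher and 3 lower, beside 11.9% and 13.2% of all genes, and with the sponge against control 5 were higher and 5 lower, beside 17.9% and 23.0%. The median differences were 0.15, 0.11 and -0.21, against -0.02, -0.04 and -0.07 over all genes. HDAC1, a histone deacetylase, averaged 10.76 ± 0.54 in Salmonella and 11.88 ± 0.29 in control libraries (-1.12 ± 0.26, adjusted p = 0.00428). SUV39H1, a histone H3 methyltransferase, was lower by -0.81 ± 0.19 (adjusted p = 0.00384), and MBD2, which binds methylated DNA, was higher by 1.18 ± 0.25 (adjusted p = 0.00199). SUMO2, TRIM24 and MORC2 were called as well in this comparison. The call of SUMO2 (2.37 ± 0.68) ended without control replicate 1 (adjusted p = 0.0522) and with only the 2 groups compared in the fit (0.0519). TRIM24 (0.61 ± 0.20) was not called without replicates 1 or 3 of either group (adjusted p 0.0585 to 0.0824). MORC2 (-0.61 ± 0.22) was not called without Salmonella replicates 1, 2 or 3, sponge plus Salmonella replicate 4 or control replicates 1, 2 or 4 (adjusted p 0.0509 to 0.123).

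With the sponge against Salmonella, HDAC2 was lower by -0.78 ± 0.20 (adjusted p = 0.0126). It averaged 4.67 ± 0.21 in sponge plus Salmonella libraries, near the background, and 5.45 ± 0.40 in Salmonella libraries. TRIM33 (-0.54 ± 0.17) was called too, but not without replicates 2, 3 or 4 of either group or control replicate 2 (adjusted p 0.0502 to 0.0993) and not with only the 2 groups compared in the fit (0.0709). SUMO2 (2.09 ± 0.68) was called, but not without any sponge plus Salmonella library or Salmonella replicates 2, 3 or 4 (adjusted p 0.0527 to 0.109). It was not called without the variance trend either (0.0659). CHD3 (-0.97 ± 0.33) lost its call without sponge plus Salmonella replicates 1, 2 or 3, Salmonella replicates 2, 3 or 4 or control replicates 2 or 4 (adjusted p 0.0545 to 0.12). SUV39H1 (0.54 ± 0.19) kept its call only without sponge plus Salmonella replicate 2 or control replicate 3 (otherwise adjusted p 0.0506 to 0.125), and lost it with median centring (0.0583) and with only the 2 groups compared in the fit (0.09). Against control, the sponge plus Salmonella libraries had more SUMO2 (4.47 ± 0.68), MBD2 (1.24 ± 0.25) and TRIM24 (0.96 ± 0.20). They had less TRIM33 (-0.71 ± 0.17), HDAC1 (-1.02 ± 0.26) and EHMT1 (-1.03 ± 0.30). The control mean of TRIM24 (4.54) lay below the background and the sponge plus Salmonella mean of EHMT1 (4.87) near it, so these sizes are uncertain. SUMO2 encodes a small modifier that TRIM28 attaches to its partners. Its SD was 0.33 in sponge plus Salmonella, 1.50 in Salmonella and 1.43 in control libraries, and Salmonella replicate 1 (9.84) stood above the other 3 Salmonella libraries (6.40 to 7.31).

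Of 31 measured zinc finger factors with other names, 4 were higher and 9 lower with Salmonella against control, beside 15.7% and 17.9% of all genes. The sponge against Salmonella gave 8 higher and 3 lower, beside 11.9% and 13.2%, and with the sponge against control 9 were higher and 8 lower, beside 17.9% and 23.0%. The median differences were -0.08, 0.24 and 0.02, against -0.02, -0.04 and -0.07 over all genes. MAZ, a factor of GC-rich promoters, averaged 8.17 ± 0.34 in Salmonella and 5.42 ± 0.40 in control libraries (2.76 ± 0.33, adjusted p = 2.3e-05). BCL6, a repressor of germinal centre B cells that monocytes also express, was higher with Salmonella (1.68 ± 0.28). BCL11B, a factor of T cells, was lower (-1.56 ± 0.19), as were KLF13 (-0.97 ± 0.14), PRDM4 (-1.02 ± 0.17) and ZHX2 (-1.59 ± 0.32). BCL11B also belongs to the T cell markers counted above, so the counts of both lists include it. With the sponge against Salmonella, BCL11B (1.44 ± 0.19), IKZF3 (1.58 ± 0.26), ZHX2 (1.95 ± 0.32), ZBTB2 (1.23 ± 0.29) and ZBTB11 (1.45 ± 0.34) were higher and MAZ was lower (-1.39 ± 0.33). With the sponge against control, IKZF3 (1.82 ± 0.26), ZBTB2 (1.59 ± 0.29), SP4 (2.88 ± 0.53) and ZBTB11 (1.85 ± 0.34) were higher, and CTCF (-1.02 ± 0.21) and KLF13 (-0.62 ± 0.14) lower. The control means of IKZF3 (4.17), ZBTB2 (4.20) and ZBTB11 (4.21) lay below the background, as did their Salmonella means (4.41, 4.55 and 4.61). This leaves their sizes against both groups uncertain. Salmonella replicate 1 stood above the other Salmonella libraries for ZBTB2 (5.60, others 3.95 to 4.47) and ZBTB11 (5.95, others 3.90 to 4.52). Those values lay above sponge plus Salmonella replicate 2 for ZBTB2 (5.23) and replicate 3 for ZBTB11 (5.94), so these groups overlapped. For MAZ they overlapped too, with sponge plus Salmonella replicate 2 (7.825) above Salmonella replicate 4 (7.818). SP4 ran from 4.27 to 7.15 in control libraries (SD 1.30).

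By position, 23 of the 99 placed ZNF genes lie on chromosome 6, 14 on chromosome 3 and 9 on chromosome 14. On chromosome 6, 2 were higher and 6 lower with Salmonella against control, where 106 of all 708 placed genes of that chromosome were higher and 147 lower. Between sponge plus Salmonella and Salmonella, 4 were higher and 3 lower, beside 67 and 87 of the 708, and with the sponge against control 1 was higher and 10 lower, beside 80 and 190. Among the placed ZNF genes, ZNF282, ZNF212, ZNF783 and ZNF777 follow one another on chromosome 18, 55495145 to 55645719. The last 3 were added for their place. Whether other genes lie between these or the ZNF genes named together below was not looked up. Against control, ZNF783 was lower with Salmonella (-1.02 ± 0.22) and with sponge plus Salmonella (-1.05 ± 0.22). ZNF212 was lower with Salmonella (-0.51 ± 0.17, adjusted p = 0.0268), a call lost without Salmonella replicates 1 or 4 or control replicates 1, 2 or 4 (adjusted p 0.05 to 0.0814), and it differed by -0.23 ± 0.17 with the sponge. ZNF777 differed by -0.56 ± 0.24 with Salmonella (adjusted p = 0.0805) and by 0.09 ± 0.24 with the sponge. Whether these genes differ from one another was not tested.

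ZNF689, ZNF688, ZNF768 and ZNF771 follow one another among the placed ZNF genes of chromosome 3, 17766740 to 17917414. The first and the last were added for their place. ZNF688 and ZNF768 were lower with the sponge than in either other group. ZNF689 averaged 8.54 ± 0.15 in sponge plus Salmonella, 8.43 ± 0.14 in Salmonella and 8.78 ± 0.04 in control libraries, and no difference passed. ZNF771 lay near the background, at 4.73 ± 0.14, 4.52 ± 0.15 and 4.23 ± 0.05 in the same order of groups. Against control it was called higher with the sponge (0.50 ± 0.09, adjusted p = 0.00069) and with Salmonella (0.28 ± 0.09, adjusted p = 0.0226). The Salmonella call ended without Salmonella replicate 2 or control replicates 2, 3 or 4 (adjusted p 0.0517 to 0.0687), with median centring (0.122) and without the variance trend (0.0531). ZNF789 and ZNF655 also follow one another among the placed ZNF genes of chromosome 3, with a gap of 23.2 kb. ZNF655 differed by -0.29 ± 0.26 with the sponge against Salmonella, where ZNF789 was higher by 1.18 ± 0.22. Against control, ZNF655 was called lower with the sponge (-0.75 ± 0.26, limma adjusted p = 0.0316). That call ended without sponge plus Salmonella replicates 2 or 3 or control replicates 1, 2 or 4 (adjusted p 0.0578 to 0.0841). Whether ZNF655 and ZNF789 differ from each other was not tested.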

How the data were processed

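RNA of PBMC was isolated with PAXgene reagents, passed at an integrity number over 8 and went into TruSeq libraries, per the labels' protocols. Bowtie, R 3.4.2 and Sscrofa11.1 are named, per the submitters' processing notes. How the authors counted, normalized, filtered and treated strand is not stated in those sources. The deposited numbers were read as log2 values because of their range, since no base is stated, and were used unchanged. Their depth is unknown.

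A single limma 3.58.1 fit in R 4.3.3 took all 12 libraries, with group means, moderated variances and a trend on level, and was checked on simulated data. The p-values were adjusted by Benjamini-Hochberg over 7480 genes and called below 0.05. Alternatives were a mean of at least 5, median centring, quantile normalization, no trend, values rounded to 1 decimal, 2 groups only, the replicate number as a block, and each library left out.

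Named genes were, per comparison, up to 10 rises and 10 falls of largest size among called genes whose mean reached 5 and whose groups did not overlap. Every measured gene of 3 role lists and the 6 smallest called p of 2 partner lists were added. The members and lists were chosen with earlier results of these data known.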

Additional observations from a re-analysis of the deposited data

Results flagged for a closer look

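Of 201 sets of 4 values checked for the named genes, 12 held 1 value far from the other 3, where chance gives about 1 in 20. Sponge plus Salmonella replicate 2 was low for MORC2 (6.12, others 6.84 to 6.93). Among Salmonella libraries, replicate 1 was high for MBD2 (7.12, others 6.66 to 6.71) and low for BCL6 (11.21, others 12.15 to 12.25). Salmonella replicate 2 was high for ZNF366 (5.72, others 5.20 to 5.26) and ZNF771 (4.74, others 4.42 to 4.46), and replicate 4 for EHMT1 (5.85, others 4.73 to 4.92). Among control libraries, ZNF618 was high in replicate 1 (4.70, others 4.35 to 4.38), as was ZNF317 (9.35, others 9.11 to 9.14). In control replicate 3, ZNF830 was high (7.37, others 6.44 to 6.49), ZBTB2 was high (4.47, others 4.09 to 4.12) and ZNF182 was low (6.20, others 6.57 to 6.65). In control replicate 4, ZNF622 was low (9.10, others 9.43 to 9.46).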

How the results depend on the processing

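Restricted to genes with a mean of at least 5, the count of ZNF genes called with the sponge against Salmonella was 13, where 71 of the 115 genes remained to be tested. The median difference of Salmonella from control was -0.37 there, -0.20 with median centring and -0.18 with quantile normalization. That of sponge plus Salmonella from control was -0.36, -0.25 and -0.17. Leaving out each library in turn gave medians of -0.18 to -0.11 for Salmonella against control, -0.16 to -0.10 for the sponge against control and -0.012 to 0.053 for the sponge against Salmonella. The counts of calls then ran from 34 to 43, from 36 to 48 and from 19 to 27. Deviations of same-numbered libraries from their group means correlated at r from -0.36 to 0.38. With 4 libraries per group this cannot show whether equal numbers share an animal or batch. The fit with the replicate number as a block called 40, 44 and 22 in the same order. The block ended the calls of ZNF792 (adjusted p = 0.071), ZNF787 (0.0597), ZNF750 (0.0607), SUV39H1 (0.0769) and TRIM33 (0.0609) with the sponge against Salmonella, of ZNF212 (0.0565) and MORC2 (0.0604) with Salmonella against control, and of ZNF655 (0.0507) with the sponge against control. Among the named genes no called difference changed sign under any alternative run. Depth is unknown, and differences near 4.62 are compressed.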

Other observations

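ZNF624, picked out by its values, had a mean over the 12 libraries below 5. It had 5.34, 5.09, 5.05 and 5.21 in sponge plus Salmonella libraries, against 4.31, 4.37, 4.22 and 4.33 in Salmonella and 4.42, 4.52, 4.37 and 4.24 in control libraries. The sponge values lay above all 8 others, which were at or below the background. The differences were 0.86 ± 0.09 against Salmonella (limma adjusted p = 7.7e-05) and 0.78 ± 0.09 against control (adjusted p = 6.5e-05). Both calls held without each library in turn, but the gene was chosen by these same values. The sponge values of 5.09, 5.05 and 5.21 also lay below the silent symbols' 95th percentile of 5.24, so the sizes are uncertain. The difference between Salmonella and control was -0.08 ± 0.09 (adjusted p = 0.548).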
